A study of Rattus norvegicus with 40 samples.

Results

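Line C (LnC) is a rat line bred from crosses of Long-Evans (L-E) and Han/Wistar (H/W) rats that carries the wild-type aryl hydrocarbon receptor (AHR) and is dioxin-sensitive. Its livers were compared 19 h after TCDD (2,3,7,8-tetrachlorodibenzo-p-dioxin) or corn oil. The arrays were chosen by their labels: 4 LnC rats given 1 gavage of 100 µg/kg TCDD and 4 LnC rats given corn oil alone, which are 8 of the 40 arrays of the series. All rats were males of 10 to 12 weeks, and each array (Affymetrix RAE230A) held RNA of 1 rat. The same 2 treatments at 19 h were used in L-E rats, which also carry the wild-type AHR, and in 2 dioxin-resistant groups, Line A (LnA) and H/W, whose AHR lacks a stretch of its transactivation domain. Each treatment group of 4 was housed in 1 cage, so cage and treatment cannot be told apart. The measured value is the log2 signal of a probe set, and 10411 genes were represented by 1 probe set each, that of highest mean signal in the 8 LnC arrays.

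The AHR is a ligand-activated transcription factor of the cytoplasm. After binding TCDD it enters the nucleus, pairs with ARNT and binds response elements with the core GCGTG, from which it raises transcription of a group of genes that includes the CYP1 monooxygenases. In liver these enzymes oxidise aromatic compounds, and the receptor's own repressors and the NRF2 transcription factor are among the genes it is known to induce. In sensitive rats TCDD is known to cause liver damage and wasting.

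The 8 arrays were alike in scale, with medians of 3.58 to 3.71 over all probe sets and mean correlations of 0.9936 to 0.9963 with the other arrays of their group. The fluidics station, an instrument that washes and stains arrays, was not balanced: the 4 corn oil arrays and TCDD replicate 4 ran on station 1, and TCDD replicates 1 to 3 on station 2. Hepatocyte markers had a summed log2 level of 18.161 to 18.32 in TCDD livers and 18.255 to 18.315 in corn oil livers, and limma called 0 of the 13 different (4 at an unadjusted p below 0.05). Bile duct markers were near the floor, with 5 of 6 never above the median of their array. Stellate and endothelial markers summed to 11.4 to 11.7 in TCDD livers and 11.3 to 11.7 in corn oil livers.

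TCDD changed 111 genes in LnC liver at an adjusted p below 0.01 (1.07% of the genes tested, by limma with Benjamini-Hochberg adjustment over all of them). Of these 61 were higher in TCDD livers (0.586%) and 50 were lower (0.480%). The rises were the larger changes: 41 of the 61 were at least 2-fold and 9 at least 8-fold, whereas 13 of the 50 falls were at least 2-fold and 2 at least 8-fold. The median log2 fold change was 1.43 among the higher genes and -0.78 among the lower genes, and 0.003 over all genes tested. Genes that fell were abundant in corn oil livers, with a median log2 signal of 10.30, against 8.12 for genes that rose. A fall can be called only where the corn oil signal lies above the floor of the scale, so the calling itself favours this contrast. In all 111 the 4 TCDD arrays were all above or all below the 4 corn oil arrays, which was so for 9.86% of all genes tested. The calls were made on these same arrays and favour such genes, so this separation adds no support to them.

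The count of calls depended on the threshold and on single arrays. At an adjusted p below 0.05 there were 374 calls (3.59%). Without TCDD replicate 2 or 3 the count below 0.01 was 64 or 73, and without corn oil replicate 1, 2, 3 or 4 it was 49, 59, 67 or 73. With the fluidics station as a block in the 8 arrays, 21 genes were called, 20 higher and 1 lower in TCDD livers, and 7 of them were among the 111. With the station as a block in the 16 LnC and LnA arrays, 84 were called, 58 higher and 26 lower, and 63 of them were among the 111. In the 8 arrays this fit sets TCDD replicate 4 alone against the corn oil arrays of its station.

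**Figure D1:**
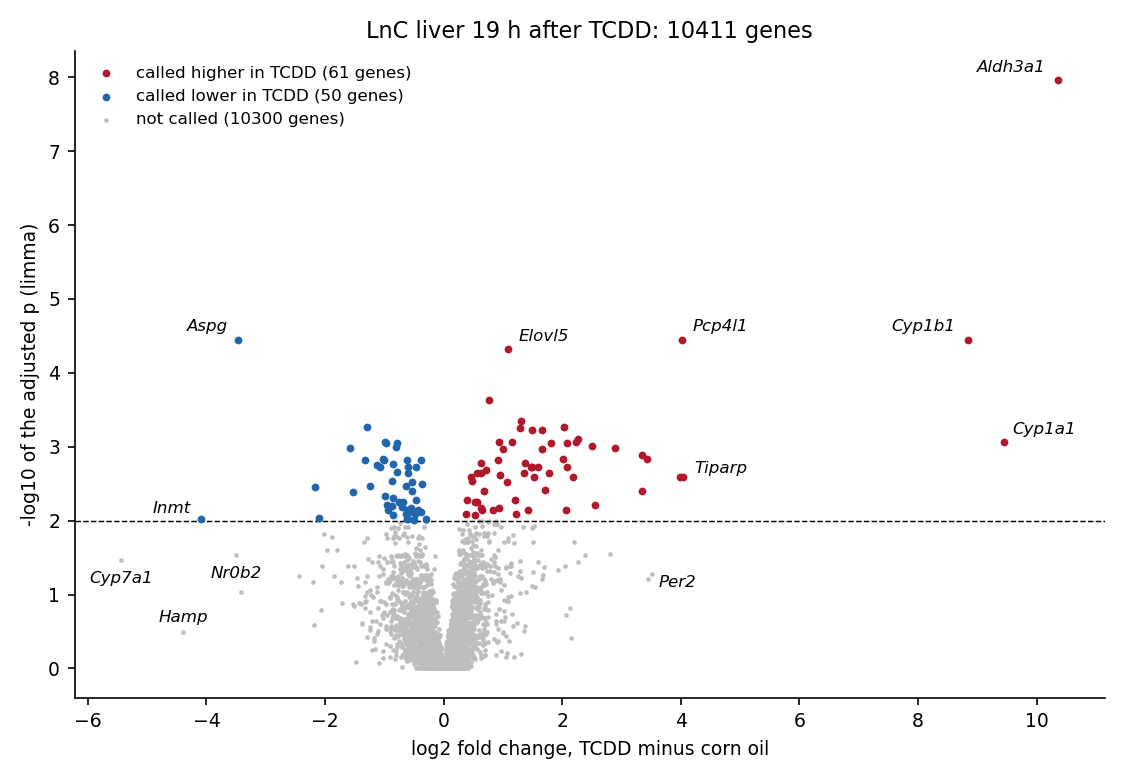
Each point is 1 of 10411 genes in LnC liver, by the log2 fold change (TCDD minus corn oil) and -log10 of the adjusted p from limma. The dashed line is the threshold of 0.01, above which lie 61 genes higher in TCDD (red) and 50 lower (blue). The rises reach 10.36 on the log2 scale and the called falls -4.09, while Cyp7a1 (-5.43) and Hamp (-4.39) lie below the line.

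Genes known to be induced through the AHR held the largest responses. Of 11 measured, 8 rose, 0 fell and 3 were not called, with a median log2 fold change of 2.08. Aldh3a1, an aldehyde dehydrogenase, had log2 signals of 13.37, 13.60, 13.72 and 13.50 in TCDD livers and 2.97, 3.28, 3.35 and 3.15 in corn oil livers. Its difference of 10.36 ± 0.10 (SE, n = 4 each) was the largest of all genes (adjusted p = 1.1e-08). The corn oil signals lay under the median of every array, where signals of different genes run together, so the size of this difference depends on the low end of the scale.

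Cyp1a1, the CYP1 monooxygenase most used as a sign of AHR activation, had log2 signals of 14.49, 14.69, 14.52 and 14.34 in TCDD livers. Its corn oil signals were 6.58, 4.07, 5.96 and 3.61, a spread of 1.43 (SD) against 0.15 among TCDD livers. The log2 difference was 9.45 ± 0.66 (SE; adjusted p = 0.00087). Cyp1b1, a related enzyme that metabolises steroids and aromatic hydrocarbons, had 12.98, 13.02, 12.09 and 11.81 in TCDD livers and 3.40, 3.83, 3.83 and 3.45 in corn oil livers (8.85 ± 0.30, adjusted p = 3.6e-05). The corn oil signals of Cyp1b1 and the lowest of Cyp1a1 lay near the array medians. The sizes of these differences thus also depend on the low end of the scale. After other processing, the paper reported smaller log2 fold changes in LnC for both and for Aldh3a1. The third member, Cyp1a2, had 15.50, 15.41, 15.45 and 15.38 in TCDD livers and an already high 14.06, 13.97, 14.26 and 14.26 in corn oil livers. Its log2 difference was 1.30 ± 0.07 (adjusted p = 0.00044).

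Tiparp encodes an ADP-ribosyltransferase that represses the AHR. It had 10.45, 10.67, 9.74 and 10.36 in TCDD livers and 5.96, 6.89, 6.89 and 5.29 in corn oil livers (4.05 ± 0.40, adjusted p = 0.0026). Nqo1, a quinone reductase with elements for both the AHR and NRF2, had 12.41, 12.07, 12.16 and 12.00 in TCDD livers and 8.83, 8.41, 8.43 and 9.60 in corn oil livers (3.34 ± 0.27, adjusted p = 0.0013). The groups of both genes were separated by more than 2 log2 units.

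The remaining AHR-inducible genes that rose were Selenbp1 and Nfe2l2. Selenbp1, a selenium-binding protein, differed by 2.08 ± 0.19 (adjusted p = 0.0019). Nfe2l2, which encodes NRF2, differed by 1.71 ± 0.18 (adjusted p = 0.0039), with 1 TCDD liver at 11.77 above the other 3 at 11.21 to 11.29. Xdh, Gsta1 and Cyp2s1 were not called, with log2 differences of 0.35, 0.12 and 0.01. The calls of Tiparp, Selenbp1 and Nfe2l2 were lost in 3, 1 and 6 of the 8 fits that left out 1 array (adjusted p up to 0.015, 0.012 and 0.016), and those of the other 5 in none. With the station as a block in the 8 LnC arrays, Aldh3a1 (adjusted p = 1.2e-05) and Cyp1b1 (0.00089) kept their calls. The other 6 did not (0.012 to 0.077), and in the 16 LnC and LnA arrays all 8 were called.

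**Figure D2:**
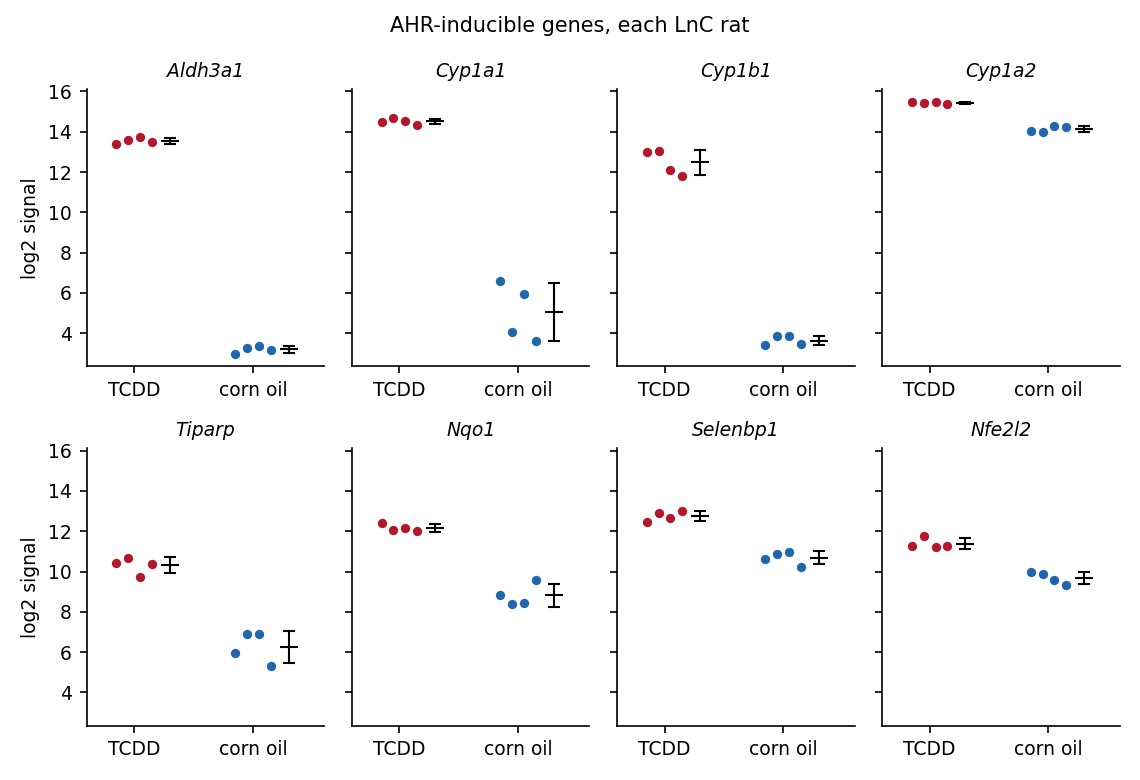
Log2 signals of the 8 AHR-inducible genes that rose, 1 point per LnC rat, TCDD in red on the left and corn oil in blue on the right of each panel, with the group mean and SD in black. The groups do not overlap in any panel, and the corn oil spread is widest for Cyp1a1 (SD 1.43).

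Among 18 NRF2 targets, which handle oxidative stress and conjugation, in a list without Nqo1, which is counted above with the AHR-inducible genes, limma called 0 in either direction (4 at an unadjusted p below 0.05, against 14.9% of all genes tested), with a median log2 fold change of 0.077. The nearest was Pgd, a pentose phosphate pathway enzyme, at 1.52 ± 0.21 (adjusted p = 0.012). The 9 measured genes of the AHR complex, its partners and coactivators, had 0 calls, and 0 at an unadjusted p below 0.05 (median -0.001). For Ahr itself the 2 probe sets gave different readings: the one used had means of 3.09 in both groups, and the other 3.07 in TCDD livers against 2.15 in corn oil livers, a log2 difference of 0.91 (adjusted p = 0.00052 among all probe sets). Both lie under the array medians.

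Promoter sequences were used to see where the AHR core lies in induced genes. RefSeq (build GRCr8) gave a 300-base window around the start site for 49 of the 61 higher genes, and GCGTG was found on either strand in 28 of the 49 (57.1%), against 21 of 45 matched lower genes (46.7%) and 46.9% of 8610 genes tested. The longer motif TNGCGTG, which contains the core, was found in 8 of the 49 (16.3%), 2 of the 45 (4.44%) and 7.48% of all genes tested. The core was thus common in all promoters, and its share among the 14 matched genes with a log2 fold change of at least 2 was 42.9%. Aldh3a1 and Cyp1a1, the 2 most induced genes, were not among those matched, and their promoters were not analysed here. Upstream stretches are printed for 4 of those genes, chosen as the ones with the largest rises among those that hold the core upstream of the start. In them capitals mark the core, written GCGTG on the strand shown. Where it lies on the opposite strand it reads CACGC. The stretches read 5′ to 3′ on the gene's strand, from chr6:21094495-21094564 (+), chr2:152063628-152063697 (+), chr2:221110632-221110701 (+) and chr19:52220268-52220337 (-).
Cyp1b1: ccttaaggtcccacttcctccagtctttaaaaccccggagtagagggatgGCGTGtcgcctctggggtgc
Tiparp: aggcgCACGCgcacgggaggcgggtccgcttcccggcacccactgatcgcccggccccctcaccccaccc
Pla2g12a: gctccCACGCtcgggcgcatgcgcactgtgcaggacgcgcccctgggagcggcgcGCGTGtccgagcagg
Nqo1: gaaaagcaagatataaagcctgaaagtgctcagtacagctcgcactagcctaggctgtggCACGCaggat
The Cyp1b1 window holds 2 copies of the core, 1 of them in this stretch, and the Pla2g12a stretch holds 2 on opposite strands. Tiparp and Nqo1 hold 1 each.

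Outside the AHR-inducible list the largest rises were those of Pcp4l1 and Pla2g12a, below those of Aldh3a1, Cyp1a1, Cyp1b1 and Tiparp. Pcp4l1, a small protein of the PEP-19 family, had 7.56, 7.02, 7.60 and 7.66 in TCDD livers and 3.31, 3.39, 3.6 and 3.44 in corn oil livers (4.02 ± 0.15, adjusted p = 3.6e-05). Pla2g12a, a secreted phospholipase A2, had 9.22, 8.70, 8.26 and 7.83 in TCDD livers and 4.38, 3.97, 4.30 and 5.40 in corn oil livers (3.99 ± 0.39, adjusted p = 0.0026). Both were at least 8-fold higher in TCDD livers, and neither had overlapping groups. The call of Pla2g12a was lost in 5 of 8 fits without 1 array (adjusted p up to 0.015).

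Tmem150c, a membrane protein, differed by 3.43 ± 0.28, with 8.34 to 8.49 in TCDD livers and 4.25 to 5.73 in corn oil livers (adjusted p = 0.0015). Gadd45a, which answers DNA damage and slows the cell cycle, had 7.71, 8.75, 8.43 and 9.05 in TCDD livers and 4.65, 4.96, 5.92 and 5.03 in corn oil livers (3.35 ± 0.36, adjusted p = 0.004). Its call was lost in 6 of 8 fits without 1 array (adjusted p up to 0.020). With Zwint, a kinetochore protein (1.20 ± 0.14, lost in 6 of these fits), it was 1 of the 2 rises in a list of 37 cell cycle and DNA damage genes, of which 0 fell (median 0.002). The list does not hold Ddb2, a DNA damage gene that also rose.

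Exoc3, a subunit of the exocyst that tethers secretory vesicles, had 3 probe sets that gave log2 differences of 2.56, 2.72 and 2.99, and its call was lost in 7 of 8 fits without 1 array (adjusted p up to 0.024). Vxn differed by 2.89, Fam8a1 by 2.51, Fbxo31 by 2.27, Pkdcc by 2.23, Cyfip2 by 2.19, Sebox by 2.09, Tc2n by 2.06, Enpp2 by 2.03 and Eml4 by 2.02. The calls of Cyfip2 and Tc2n were lost in 6 and 7 of 8 fits without 1 array, and those of the other 7 genes in none. Among them, Pkdcc is a secreted protein kinase, Cyfip2 a regulator of actin assembly, Sebox a homeobox transcription factor, Enpp2 the enzyme autotaxin, which makes lysophosphatidic acid, and Eml4 a microtubule-binding protein. Vxn, Cyfip2 and Pcp4l1 had corn oil means under the medians of all arrays. Of the 28 called genes with several probe sets, 27 of 33 other probe sets had the same sign as the one used, and 19 of the 33 also had an unadjusted p below 0.05. Ddb2, a DNA damage recognition protein, was one exception: it differed by 1.53 ± 0.15 (adjusted p = 0.0026, lost in 5 of 8 fits without 1 array), and its second probe set by -0.36 (unadjusted p = 0.25).

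The largest called fall was that of Inmt, an amine N-methyltransferase. Its log2 signals were 3.99, 4.81, 5.07 and 6.65 in TCDD livers and 9.18, 9.11, 9.76 and 8.84 in corn oil livers, a difference of -4.09 ± 0.53 (adjusted p = 0.0094). TCDD replicate 4 was the highest of the TCDD livers, and the difference with the station as a block in the 8 arrays, which rests on that liver, was -2.58 (adjusted p = 0.066). The call was also lost in 7 of 8 fits without 1 array (adjusted p up to 0.038). Aspg, an asparaginase, had 2.63, 2.65, 2.60 and 2.73 in TCDD livers and 5.87, 6.40, 5.92 and 6.27 in corn oil livers (-3.46 ± 0.12, adjusted p = 3.6e-05). All 4 TCDD signals of Aspg lay under the array medians, so the fall reached the floor of the scale, and its call held without each array in turn and with the station as a block (adjusted p = 0.0026).

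Acy3, an aminoacylase that deacetylates mercapturic acids, differed by -2.17 ± 0.23 (adjusted p = 0.0035). Zmiz1, a transcriptional coregulator, differed by -2.10 ± 0.27 (adjusted p = 0.0092), but its second probe set gave -0.16. The calls of Acy3 and Zmiz1 were lost in 6 and 7 of 8 fits without 1 array. Xpnpep2, a membrane aminopeptidase, differed by -1.52, Mtus1, a microtubule-associated tumour suppressor, by -1.30, Myo1d, a class I myosin, by -1.01 and Ifitm3, an interferon-induced membrane protein, by -0.99. The calls of Xpnpep2 and Ifitm3 were each lost in 6 of 8 fits without 1 array. Pnkd fell by 1.12 on the probe set used and had a difference of 0.22 on its other one.

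Amino acid catabolism and the urea cycle held more falls than any other list of metabolic genes examined. Of 56 measured genes 7 fell and 2 rose, with a median log2 fold change of -0.26, and in 18 all TCDD livers were below all corn oil livers (4.53% of all genes tested). Both group means lay under every array median in 4 of the 56 and in 4290 of the 10411 genes tested. The falls included steps that release and carry nitrogen. Gls2, the liver glutaminase, had 10.47, 10.08, 10.01 and 10.07 in TCDD livers and 11.54, 11.60, 11.44 and 11.33 in corn oil livers (-1.32 ± 0.11, adjusted p = 0.0015). Glud1, glutamate dehydrogenase, differed by -0.78 ± 0.07 (adjusted p = 0.0022).

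Of the mitochondrial carriers of the cycle, Slc25a15, which exchanges ornithine for citrulline, had 10.13, 10.12, 9.95 and 10.19 in TCDD livers and 11.18, 11.10, 11.05 and 10.93 in corn oil livers (-0.97 ± 0.07, adjusted p = 0.00088). Slc25a13, the aspartate and glutamate carrier, differed by -0.85 ± 0.10 (adjusted p = 0.0049), and Ass1, argininosuccinate synthase, by -0.61 ± 0.08 (adjusted p = 0.0072). The cycle enzymes Otc and Arg1 had differences of -0.52 and -0.71 and were not called (adjusted p = 0.036 and 0.049). No groups overlapped among these 5 genes.

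Cdo1, the first enzyme of cysteine oxidation, differed by -0.85 ± 0.11, and Grhpr, which reduces glyoxylate, by -0.78 ± 0.06. The list's 2 rises were Haao (0.71 ± 0.07), an enzyme of the route from tryptophan to NAD, and Qdpr (0.53 ± 0.07), which regenerates the cofactor of phenylalanine hydroxylase. The calls of Gls2, Slc25a15 and Grhpr held without each array in turn, those of Ass1, Cdo1 and Slc25a13 were lost in 7 of 8 fits, that of Glud1 in 5, that of Haao in 4 and that of Qdpr in 8. Outside this list, Maob, which oxidises amines in mitochondria, differed by -0.61 ± 0.05 (adjusted p = 0.0019). With Inmt it was 1 of the 2 falls among 21 methyl group and amine genes.

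**Figure D3:**
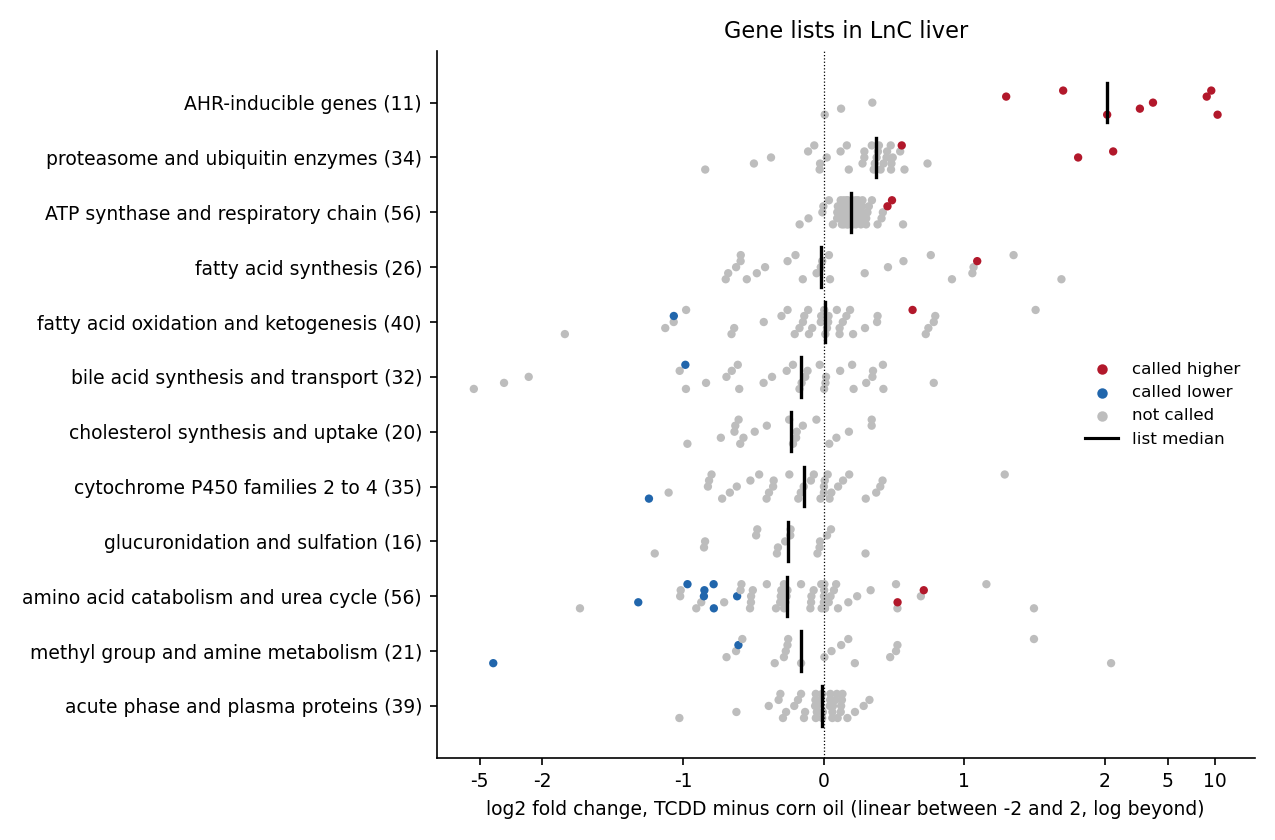
Log2 fold changes (TCDD minus corn oil) in LnC liver of the measured genes of 12 lists, 1 point per gene, red where called higher, blue where called lower and grey where not called. The number measured follows each list's name and black bars mark list medians, which run from 2.08 for AHR-inducible genes to -0.26 for amino acid catabolism and the urea cycle.

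Lipid and bile acid genes had few calls, but unadjusted p values below 0.05 were more frequent than among all genes tested (14.9%). They made up 42.3% of fatty acid synthesis genes and 42.5% of fatty acid oxidation and ketogenesis genes. For cholesterol genes the share was 35%, and for bile acid genes 40.6%. Both group means lay under every array median in 1 synthesis gene, 3 oxidation genes, 0 cholesterol genes and 3 bile acid genes. That held for 4290 of the 10411 genes tested, so the 14.9% is not a share of genes alike in signal. Elovl5, the elongase of polyunsaturated fatty acids, had 13.48, 13.48, 13.51 and 13.41 in TCDD livers and 12.27, 12.39, 12.44 and 12.40 in corn oil livers (1.09 ± 0.04, adjusted p = 4.8e-05). It was the only call among 26 fatty acid synthesis genes (median -0.015). Elovl6, which extends saturated chains, had a difference of 1.69 ± 0.34 and was not called (adjusted p = 0.043). Among 40 genes of fatty acid oxidation and ketogenesis Eci2, an enoyl-CoA isomerase, rose by 0.63 and Acot12, an acetyl-CoA hydrolase, fell by 1.07. Their calls were lost in 8 and 1 of 8 fits without 1 array. Of 20 cholesterol synthesis and uptake genes limma called 0, with 7 at an unadjusted p below 0.05 (median -0.23). Of 28 genes of glucose metabolism 1 fell, Pdha1 of the pyruvate dehydrogenase complex (-0.54 ± 0.06, adjusted p = 0.004, lost in 7 of 8 fits without 1 array). Its second probe set gave -0.12.

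Of 32 genes of bile acid synthesis and transport, Slco1a1, an organic anion uptake carrier, was called: 9.24, 9.10, 9.38 and 9.30 in TCDD livers and 10.19, 10.35, 10.26 and 10.15 in corn oil livers (-0.98 ± 0.07, adjusted p = 0.00087). The carrier Slc22a7 and the bile acid ligase Slc27a5 had differences of -0.65 and -0.84 without being called (adjusted p = 0.012 for both). Of 35 cytochromes of families 2 to 4, Cyp3a9 fell by 1.24 (adjusted p = 0.0034, lost in 5 of 8 fits without 1 array). In 10 of the 35 the TCDD livers lay below all corn oil livers (4.53% of all genes tested), and the list's median was -0.14. In 1, Cyp2a1, they lay above (1.29, adjusted p = 0.035), against 5.33% of all genes tested. Cyp3a2 and Cyp3a18, which resemble Cyp3a9 in sequence, had differences of -0.62 and -0.82 (adjusted p = 0.017 and 0.020). Cyp3a23-3a1, of the same subfamily, had a difference of 0.03. Among 19 glutathione S-transferases Gstk1 fell by 0.55 (adjusted p = 0.0067, lost in 8 of 8 fits without 1 array), and limma called 0 of 16 genes of glucuronidation and sulfation, with 5 at an unadjusted p below 0.05 (median -0.26).

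Genes of protein breakdown and of mitochondrial energy supply had median differences above 0, with few calls. Of these 2 lists, 73.5% and 60.7% had an unadjusted p below 0.05, against 14.9% of all genes tested. Both group means lay under every array median in 0 genes of either list and in 4290 of all genes tested. The shares are thus not of genes alike in signal. Of 34 proteasome and ubiquitin genes 3 rose and 0 fell, with a median log2 fold change of 0.37. In 19 all TCDD livers were above all corn oil livers and in 1, Psmb8, all were below (5.33% and 4.53% of all genes tested). Fbxo31, the substrate receptor of a ubiquitin ligase, had 10.64, 10.64, 10.03 and 10.29 in TCDD livers and 8.01, 8.28, 8.23 and 8.02 in corn oil livers (2.27 ± 0.15, adjusted p = 0.00079). Ube4b, a ubiquitin chain elongation factor, differed by 1.81 ± 0.13 (adjusted p = 0.00088).

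Of the 26 subunits of the proteasome itself, 23 had a log2 difference above 0, with a median of 0.38, against 0.003 over all genes tested. Those below 0 were Psmb8 (-0.84), Psmb9 (-0.37) and Psmd1 (-0.07). Psmb4, a subunit of its core, was called at 0.56 ± 0.06 (adjusted p = 0.0056, lost in 6 of 8 fits without 1 array). Psma4 had a difference of 0.74 and Psmc1 of 0.55, neither called (adjusted p = 0.016 and 0.015). Among 56 genes of ATP synthase and the respiratory chain 2 rose and 0 fell, with a median of 0.20. In 20 all TCDD livers were above all corn oil livers and in 0 below (5.33% and 4.53% of all genes tested). Atp5f1c, the gamma subunit of ATP synthase, differed by 0.45 ± 0.04 (adjusted p = 0.0026). Atp5pd, another of its subunits, differed by 0.49 ± 0.05 (adjusted p = 0.0029). Both calls were lost in 4 of 8 fits without 1 array.

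Of 42 nuclear receptors and hepatocyte transcription factors 2 rose and 2 fell (median -0.013). Nfib, a nuclear factor I protein, had 6.79, 6.84, 6.56 and 6.98 in TCDD livers and 8.44, 8.52, 8.43 and 8.08 in corn oil livers (-1.57 ± 0.12, adjusted p = 0.001). Its relative Nfic differed by -0.88 ± 0.09 (adjusted p = 0.0029). Nr1h3, the oxysterol receptor LXR alpha, differed by 0.63 ± 0.06 (adjusted p = 0.0022), and Rxrg, a retinoid X receptor, by 1.22 ± 0.15 (adjusted p = 0.0081). The calls of Nfic, Nr1h3 and Rxrg were lost in 3, 2 and 7 of 8 fits without 1 array, and that of Nfib in 0. With the station as a block in the 16 LnC and LnA arrays, Nfib, Nfic, Nr1h3 and Rxrg all lost their calls (adjusted p = 0.017, 0.022, 0.014 and 0.051).

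Hormone and iron genes added 4 falls. Of 29 insulin and IGF axis genes 1 fell, of 29 retinoid and steroid genes 2, and of 18 heme and iron genes 1. Among all genes tested 0.480% fell. Igfals, which holds IGF1 in its circulating complex, had 9.70, 9.94, 9.69 and 9.57 in TCDD livers and 10.73, 10.69, 10.88 and 10.66 in corn oil livers (-1.01 ± 0.08, adjusted p = 0.0015). It was the only call among 29 genes of the insulin and IGF axis. With the station as a block in the 16 LnC and LnA arrays this call was lost (adjusted p = 0.031). Igf1 had a difference of -0.66 (adjusted p = 0.097), and Igfbp1, which had 6.55 to 8.54 in TCDD livers and 4.24 to 6.67 in corn oil livers, overlapped between groups. Hsd11b1, which regenerates active glucocorticoid, differed by -0.88 ± 0.10, and Hsd3b5, a hydroxysteroid dehydrogenase, by -0.47 ± 0.05. Slc40a1, the iron exporter ferroportin, differed by -0.68 ± 0.08. Those 3 calls were lost in 7, 6 and 6 of 8 fits without 1 array.

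Limma called 0 of 39 acute phase and plasma protein genes (10 at an unadjusted p below 0.05, median -0.01), 0 of 16 coagulation genes (8), 0 of 16 circadian clock genes (1) and 0 of 43 genes of folding and degradation in the endoplasmic reticulum (8). At that unadjusted level the 4 shares were 25.6%, 50%, 6.25% and 18.6%, against 14.9% of all genes tested. Both group means lay under every array median in 0, 2, 5 and 2 genes of the 4 lists, and in 4290 of all genes tested. Of the endoplasmic reticulum genes, Atf4, a stress-responsive transcription factor, had a difference of 0.85 (adjusted p = 0.015). That list is a selection and does not hold Stt3b (-0.60), Prdx4 (-0.38), Dnajc1 (0.39) or Hm13 (0.96), which were called. Their calls were lost in 8, 8, 7 and 3 of 8 fits without 1 array. Of 17 macrophage and other immune cell markers Cd14, the endotoxin coreceptor, fell: 9.12, 9.35, 9.62 and 9.64 in TCDD livers and 10.38, 10.41, 10.32 and 10.36 in corn oil livers (-0.93 ± 0.11, adjusted p = 0.0072, lost in 7 of 8 fits without 1 array). The summed log2 level of the 17 was 11.0 to 11.6 in TCDD livers and 11.6 to 11.8 in corn oil livers, and without Cd14 10.5 to 11.2 in TCDD livers and 10.9 to 11.2 in corn oil livers. In whole liver, fewer cells of a type and less RNA per cell cannot be told apart, and the part of macrophages in the fall of Cd14 was not tested.

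Some of the largest differences did not pass the test, and in these the rats of 1 or both groups differed widely among themselves. Cyp7a1, the rate-limiting enzyme of bile acid synthesis, had 2.43, 3.53, 5.81 and 2.47 in TCDD livers and 10.27, 10.15, 7.09 and 8.46 in corn oil livers. Its difference of -5.43 ± 1.0 exceeded that of Inmt, and the groups did not overlap (adjusted p = 0.034). Nr0b2, the repressor SHP that acts on Cyp7a1, had 3.44, 3.47, 5.99 and 3.77 in TCDD livers and 7.42, 7.16, 7.61 and 8.47 in corn oil livers (-3.50 ± 0.61, adjusted p = 0.029). TCDD replicate 3 had the highest signal of its group for both genes.

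Hamp, which encodes the iron hormone hepcidin, had 2.98, 11.42, 11.48 and 8.67 in TCDD livers and 13.23, 13.34, 12.16 and 13.38 in corn oil livers. The groups did not overlap, yet the spread among TCDD livers left an SE of 1.83 on the difference of -4.39 (adjusted p = 0.32). Per2, a repressor of the circadian clock, was even among TCDD livers at 8.71, 8.75, 8.77 and 9.0 and uneven among corn oil livers at 6.63, 6.62, 5.10 and 3.06 (3.45 ± 0.77, adjusted p = 0.061). It was the 1 gene of the 16 in the clock list whose groups did not overlap (9.86% of all genes tested). Chka, choline kinase, had a difference of 2.20 ± 0.35 (adjusted p = 0.020) and Gadd45g, a relative of Gadd45a, 2.80 ± 0.48 (adjusted p = 0.028). Ccnd1, which encodes cyclin D1, had one of -1.10 ± 0.20 (adjusted p = 0.031).

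**Figure D4:**
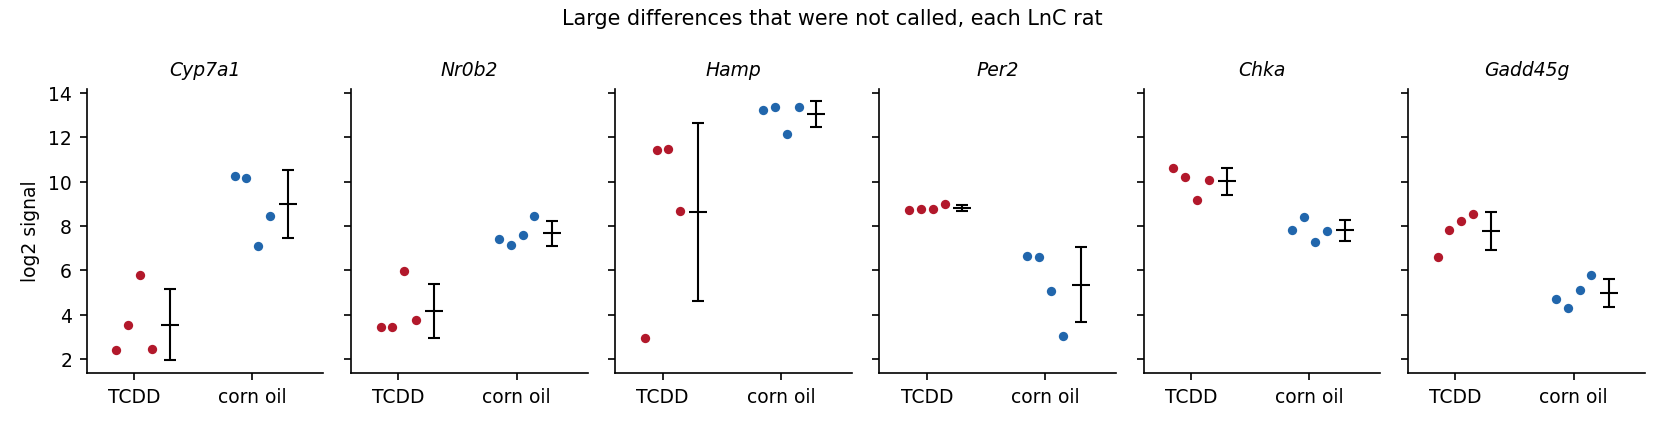
Log2 signals of 6 genes with large differences that were not called, 1 point per LnC rat, TCDD in red on the left and corn oil in blue on the right of each panel, with the group mean and SD in black. The groups do not overlap in any panel, and single rats stand apart, such as the TCDD liver at 2.98 for Hamp.

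The response was set beside those of the other strains/lines on the same probe sets. The fluidics station was unbalanced there too, and most like LnC in the first 2. In L-E all 4 TCDD arrays ran on station 2 and all 4 corn oil arrays on station 1. In LnA 3 of 4 TCDD arrays ran on station 2 and all 4 corn oil arrays on station 1, and in H/W all 4 TCDD arrays ran on station 1 with 3 of 4 corn oil arrays. The part of the station in the shared signs was not tested. All 61 higher genes had a positive difference in L-E, LnA and H/W rats too, and of the 50 lower genes 49, 50 and 49 had a negative one. Of the 111 genes, 58 were also called in the same direction in L-E (52.3% of the LnC calls and 27.1% of 214 L-E calls), 38 in LnA (34.2%, and 33.6% of 113) and 23 in H/W (20.7%, and 52.3% of 44). The calls were 2.06% of the genes tested in L-E, 1.09% in LnA and 0.423% in H/W. A gene called in LnC and not elsewhere is not thereby shown to differ. Across the 10411 genes, which are not independent, the log2 fold changes in LnC correlated with those in L-E at 0.79, in LnA at 0.77 and in H/W at 0.77.

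Whether a gene responded differently was tested as the difference of the 2 responses in 16 arrays. Between LnC and LnA, which share their parentage and differ in the AHR allele among other loci, 8 genes differed (0.0768% of those tested). Vxn, Cyfip2 and Sebox rose in LnC and were near their corn oil level in LnA. Vxn had a mean of 3.69 in LnA TCDD livers and 3.27 in LnA corn oil livers, and its LnC response exceeded that of LnA by 2.48 ± 0.31 (adjusted p = 0.0044). Cyfip2 had 3.22 in LnA TCDD livers and 3.11 in LnA corn oil livers (2.07 ± 0.24, adjusted p = 0.004). For Sebox, with 4.23 and 3.96 in the same 2 groups, the responses differed by 1.82 ± 0.17 (adjusted p = 0.00068). Litaf, a lipopolysaccharide-induced regulator, fell by 0.80 in LnC and had a difference of -0.18 in LnA (-0.62 ± 0.09, adjusted p = 0.0077).

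The remaining 4 genes were not called in LnC. Gsta3, a glutathione S-transferase, had log2 signals of 3.08 to 3.46 in LnC TCDD livers and 3.05 to 3.13 in LnC corn oil livers, against means of 6.28 in LnA TCDD livers and 3.18 in LnA corn oil livers (-2.98 ± 0.41, adjusted p = 0.0077). Slc17a1, a phosphate and organic anion carrier, had 7.46 to 8.06 in LnC TCDD livers and 7.51 to 8.06 in LnC corn oil livers, against 9.71 and 7.63 in LnA (-2.05 ± 0.26, adjusted p = 0.0044). Lox, the collagen crosslinking enzyme lysyl oxidase, was at 3.48 to 3.66 in LnC TCDD livers and 3.50 to 3.72 in LnC corn oil livers. Its LnA means were 3.94 in TCDD livers and 6.32 in corn oil livers, and the responses differed by 2.34 ± 0.29 (adjusted p = 0.0044). C20h6orf136 differed by -0.97 ± 0.13 (adjusted p = 0.0048). The difference of Sebox held without each of the 16 arrays in turn, and those of the other 7 were lost in 9 to 14 of these 16 fits.

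LnC and L-E responses differed for 1 gene (0.00961% of those tested), Cfap298, a cilia and flagella associated protein. It had 5.26, 5.55, 5.35 and 5.39 in LnC TCDD livers and 4.39, 4.43, 4.54 and 4.42 in LnC corn oil livers, against means of 4.37 in L-E TCDD livers and 4.12 in L-E corn oil livers. The responses differed by 0.69 ± 0.08 (adjusted p = 0.0089), and the call was lost in 11 of 16 fits without 1 array. Between LnC and H/W limma called 0 genes (0.00%), and Slc17a1 came nearest at -1.45 (adjusted p = 0.031). Of the 10411 genes, 594 had an unadjusted p below 0.05 for H/W, 622 for L-E and 495 for LnA. These counts are near the share that chance alone would give at that threshold.

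**Figure D5:**
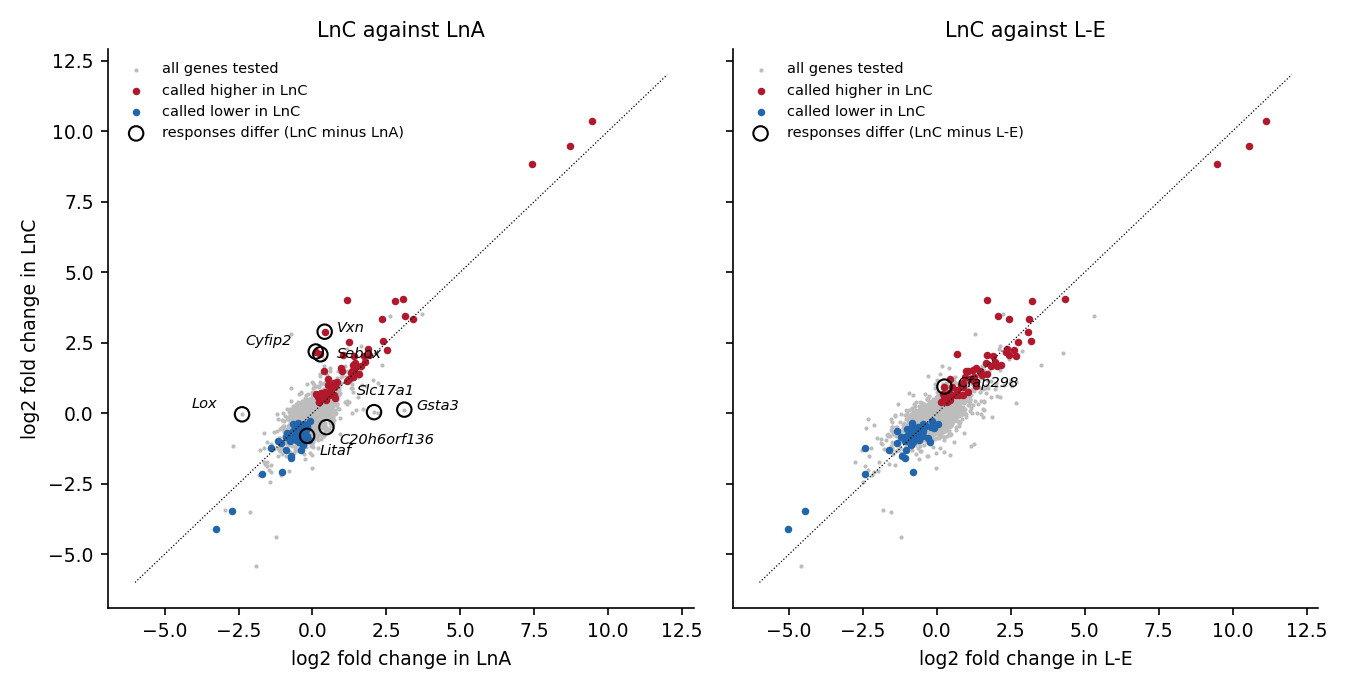
Log2 fold changes (TCDD minus corn oil) of 10411 genes in LnC (vertical axis) against LnA (left) and L-E (right), with genes called higher in LnC in red and lower in blue. Circles mark the 8 genes whose LnC and LnA responses differed and the 1 gene (Cfap298) whose LnC and L-E responses differed, and the dotted line marks equal responses.

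The study set apart a group of genes as altered by TCDD in the sensitive rats alone, and 40 of them were measured here. In LnC 4 rose (Tc2n, Prpsap1, Pdcd6 and Atp5f1c), 10 fell and 26 were not called, with a median log2 fold change of -0.56. The paper called the genes of this group in LnC at the same threshold, after other processing. In all 40 the TCDD livers lay entirely on one side of the corn oil livers. The median over the 40 was also below 0 in the other groups: -0.659 in L-E, -0.32 in LnA and -0.255 in H/W. The list was chosen on these same samples and is no independent evidence of a direction. Among the falls were Nfib, Xpnpep2, Hsd11b1, Ass1, Gstk1, Col18a1, the precursor of endostatin (-0.96), and Adk, adenosine kinase, whose difference of -0.36 ± 0.04 was small but even, with 11.53 to 11.55 in TCDD livers and 11.82 to 11.99 in corn oil livers (adjusted p = 0.0032). The calls of Col18a1 and Adk were lost in 7 and 6 of 8 fits without 1 array. None of these genes was among those whose response differed between LnC and LnA.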

How the data were processed

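RNA of 40 rat livers was measured on RAE230A arrays, and the 8 LnC arrays of 19 h were analysed, with 8 arrays each of L-E, LnA and H/W for the interactions. Each deposited value is a log2 signal of 1 probe set. Per the submitters' processing notes the authors made them with R 2.3.1, affy 1.10.0 and GCRMA 2.4.1; their methods describe RMA with an Entrez probe map, which was not repeated. GCRMA corrects the background by probe sequence and evens out the arrays' probe signals, so a shift of all genes would be largely removed. The deposited probe set values still differ slightly in scale between arrays, and low signals are compressed. Groups came from the sample labels, and 0 columns were unused. Scanner text files gave the fluidics stations.

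The arrays hold 15923 probe sets. Without 57 controls, 12783 carry 1 symbol, 312 several and 2771 none, and the first kind was used. The array's annotation gave the symbols, and 10378 of 10411 Entrez IDs were found in the RefSeq table with the same symbol. Of the 10411 genes, 8543 have 1 probe set, and no genes were filtered. In 4290 genes both LnC group means lay under the median of every array (lowest median 3.52). R 4.3.3 with limma 3.58.1 (lmFit, eBayes) compared the 4 TCDD with the 4 corn oil arrays, and interactions were fitted in 16 arrays. Adjusted p is Benjamini-Hochberg over all genes, with the threshold of 0.01 that the study's methods use. Errors are standard errors of log2 differences, and 4 arrays a group limit the precision.

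The members, gene lists and tests were chosen with earlier results of these data known. Genes named are the 20 largest called rises and falls, the 5 lowest adjusted p, list members, genes the paper names and the interaction calls. Ahr's second probe set was given because the 2 disagree. Same-numbered TCDD and corn oil arrays did not deviate together (correlations 0.0471, -0.255, 0.0966 and -0.26 over 2128 genes), so the main fit has no block. Alternatives were other probe set choices, normalizations, filters and fits, and each array left out. The fluidics station fits were chosen after seeing the data. The fits were tested on simulated data.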

Additional observations from a re-analysis of the deposited data

Results flagged for a closer look

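In groups of 4, 1 array can lie far from the other 3. Over the named genes 18 of 288 groups met Dixon's criterion for this, and chance flags about 1 in 20 groups. In TCDD livers the value standing apart was high for Gls2 (10.47, the others 10.01 to 10.08), Nfe2l2 (11.77, the others 11.21 to 11.29), Prxl2c (10.22, the others 10.03 to 10.04), Nr0b2 (5.99, the others 3.44 to 3.77) and Ahr (3.18, the others 3.06 to 3.08). It was low for Pcp4l1 (7.02, the others 7.56 to 7.66), Pmpcb (9.30, the others 9.47 to 9.49) and Ccnd1 (4.73, the others 5.03 to 5.07). In corn oil livers it was high for Csk (7.39, the others 6.97 to 7.03), Larp1b (5.63, the others 5.41 to 5.44), Arnt (3.84, the others 3.50 to 3.55) and Otc (12.01, the others 11.82 to 11.83). It was low for Grhpr (12.21, the others 12.33 to 12.35), Nr1h3 (10.24, the others 10.45 to 10.47), Pttg1ip (11.39, the others 11.49 to 11.51), Tapt1 (7.68, the others 7.92), Cyp3a18 (12.57, the others 12.71 to 12.72) and Hamp (12.16, the others 13.23 to 13.38). Corn oil replicate 3 was the array in 5 of these 18.

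The response to TCDD differed between LnC and another line in a test of the difference itself for 9 genes. Against LnA the difference (LnC minus LnA) was 2.48 for Vxn, 2.34 for Lox, 2.07 for Cyfip2, 1.82 for Sebox, -0.62 for Litaf, -0.97 for C20h6orf136, -2.05 for Slc17a1 and -2.98 for Gsta3. Against L-E it was 0.69 for Cfap298.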

How the results depend on the processing

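The 111 LnC calls became 188 with array weights, 54 with a minimum log2 fold change of 1, 370 in 1 fit over the 8 groups of 19 h (93 of the 111 among them), and 49 to 105 without 1 array. With the fluidics station as a block, or on station 1 alone, which leaves 1 TCDD array, 21 and 9 genes were called. The replicate number as a block gave 5, and the numbers do not pair the rats. Under 7 other settings the count was 81 to 161. Of 3164 alternative values of single named or called genes 2198 kept their side of the threshold, 904 lost the call and 40 gained one. The LnC minus L-E count of 1 became 0 without the lowest 40% of genes, with limma's trend and with the replicate block, and 0 to 5 without 1 array. The LnC minus LnA count of 8 became 0 with the replicate block and 1 to 10 without 1 array. In the fit over 8 groups it was 7, and 3 of these were among the 8. That fit also called 1 gene for LnC minus L-E, which was not Cfap298. The LnC minus H/W count of 0 became 1 in the fit over 8 groups and 0 to 2 without 1 array. The promoter share was 16.3% for TNGCGTG.

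Signs turned only in genes whose main LnC difference was near 0 and not called. Ahr (-0.00) gave 0.46 as the mean of its probe sets, 0.91 with the probe set highest over 32 arrays (both called), 0.082 with the station as a block in 8 arrays or on station 1 alone, 0.044 in 16 arrays, and -0.028 to 0.015 without 1 array. Slc17a1 (0.04) gave -0.058 with array weights, -0.00021 with the station as a block in 8 arrays or on station 1 alone, -0.15 in 16 arrays, and -0.054 to 0.15 without 1 array. Cyp2s1 (0.01) gave -0.0056 with arrays centred on their medians, -0.0036 with array weights, and -0.0048 to 0.016 without 1 array. With the station as a block in 16 arrays Gsta3 gave -0.31 and Lox 0.16. The causes were not tested.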
